A study of Mus musculus with 27 samples.

Results

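Small RNAs enriched in neurons, entered in the count table as mmu-miR-128-3p, mmu-miR-129-5p, mmu-miR-137-3p, mmu-miR-138-5p, mmu-miR-153-3p and mmu-miR-218-5p and written here without the species prefix, were followed in mouse cortex over the hours after a transient stroke. They were chosen by name, as 6 of the 1842 entries, and all 6 passed the filter on low counts that kept 1470 entries for testing. The tissue came from wild-type C57BL6 mice of 7 to 8 weeks. In the stroke model a suture passed up from the right carotid artery closed the middle cerebral artery for 35 min (MCAO), after which blood flow returned and the animals recovered for 3, 6, 12 or 24 h. Cortex was taken from the occluded side (written ipsi_3h to ipsi_24h) and from the opposite side of MCAO animals (contra_3h to contra_24h). Sham animals had the same anaesthesia and exposure of the arteries with no suture. Each of these 9 groups holds 3 libraries, 27 in all, and every replicate number stands for its own day of surgery. The sham tissue is labelled cortex with no side, and no source used here says whether the libraries of both hemispheres with one number come from one animal, or whether animals were pooled.

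A miRNA is a short RNA that guides the silencing complex to matching sites in messenger RNAs, mainly through bases 2 to 8 from its 5′ end, the seed. One hairpin precursor yields a 5p and a 3p strand, of which usually 1 is kept and the other is degraded. In mouse brain miR-128-3p limits the excitability of neurons, and miR-218-5p is known for its high level in motor neurons and its role in hippocampal circuits. In cultured rat neurons miR-138-5p restrains the growth of dendritic spines, and miR-129-5p takes part in the adjustment of synapses to activity. miR-137-3p acts in neuronal maturation and at presynaptic terminals, and miR-153-3p has targets in synaptic vesicle release.

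The mature sequences show how each of the 6 reads its targets, with the seed in capitals (5′ to 3′, from RefSeq on GRCm38.p6, where all 6 names matched).
miR-128-3p: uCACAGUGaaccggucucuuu
miR-129-5p: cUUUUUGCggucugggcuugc
miR-137-3p: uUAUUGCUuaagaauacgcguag
miR-138-5p: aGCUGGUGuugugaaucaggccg
miR-153-3p: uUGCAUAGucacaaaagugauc
miR-218-5p: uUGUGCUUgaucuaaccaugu
No seed is shared among them. Across the 1679 mature names of the RefSeq table, 5 of the 6 seeds occur in no other miRNA, and that of miR-218-5p is shared with miR-7002-3p only. Of the 6, 4 (miR-128-3p, miR-129-5p, miR-138-5p and miR-218-5p) are made with an identical sequence from 2 hairpins each, so their counts cannot be split by gene.

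On GRCm38.p6 with the GENCODE M21 annotation, 5 of the 10 hairpins lie in an intron of a protein-coding gene on the same strand. These are Mir128-1 in R3hdm1 (chr1:128202361-128202430, plus strand), Mir128-2 in Arpp21 (chr9:112118636-112118711, minus strand) and Mir153 in Ptprn2 (chr12:117250817-117250885, plus strand). Mir218-1 lies in Slit2 (chr5:48223942-48224051, plus strand) and Mir218-2 in Slit3 (chr11:35616816-35616925, plus strand). Mir137 (chr3:118433857-118433929, plus strand) overlaps an exon of the non-coding gene Gm26871. Mir138-1 (chr9:122682876-122682974, plus strand) and Mir138-2 (chr8:94324311-94324381, plus strand) overlap exons of the pseudogene Gm47135 and of the lincRNA C78859. Mir129-1 (chr6:29022619-29022691, plus strand) overlaps an exon of Gm3294, and Mir129-2 (chr2:94241364-94241453, minus strand) lies in an intron of Mir670hg.

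Totals ranged from 856591 to 1903416 counts per library, and no member fell below 194 counts in any library. Levels are given in CPM, counts per 1000000 of the library total after multiplying it by its TMM factor, which corrects for differences in composition between libraries. A pair of libraries stood apart: miR-182-5p, a miRNA of epithelial and sensory cells, was at 20875 CPM of the total in ipsi_6h replicate 3 and at 18878 in sham replicate 2, against 67.3 to 492 in the other 25. The brain miRNAs miR-9-5p (31053 CPM) and miR-124-3p (5261 CPM on average over the 27 libraries) were present as the label cortex implies.

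The 6 miRNAs spanned more than 2 orders of magnitude in level. miR-128-3p averaged 79383 ± 25582 CPM (SD over 27 libraries), the second highest mean of all entries, and miR-138-5p followed at 4346 ± 1612. miR-218-5p averaged 1431 ± 375, miR-153-3p 1360 ± 688, miR-129-5p 623 ± 106 and miR-137-3p 304 ± 74.6 CPM. Counts of mature miRNAs of about equal length compare directly, but ligation bias in library making differs between sequences and was not measured. The order miR-128-3p over miR-138-5p over miR-218-5p held in 27 of 27 libraries, as did miR-129-5p over miR-137-3p. miR-153-3p was above miR-129-5p in 26 of 27. The neighbours miR-218-5p and miR-153-3p did not separate, with miR-218-5p the higher in 18 of 27 and a log2 ratio of 0.21 ± 0.44 (SD). miR-153-3p had the widest range, 5.94-fold between its highest and lowest library, and miR-129-5p the narrowest, 1.95-fold.

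**Figure D1:**
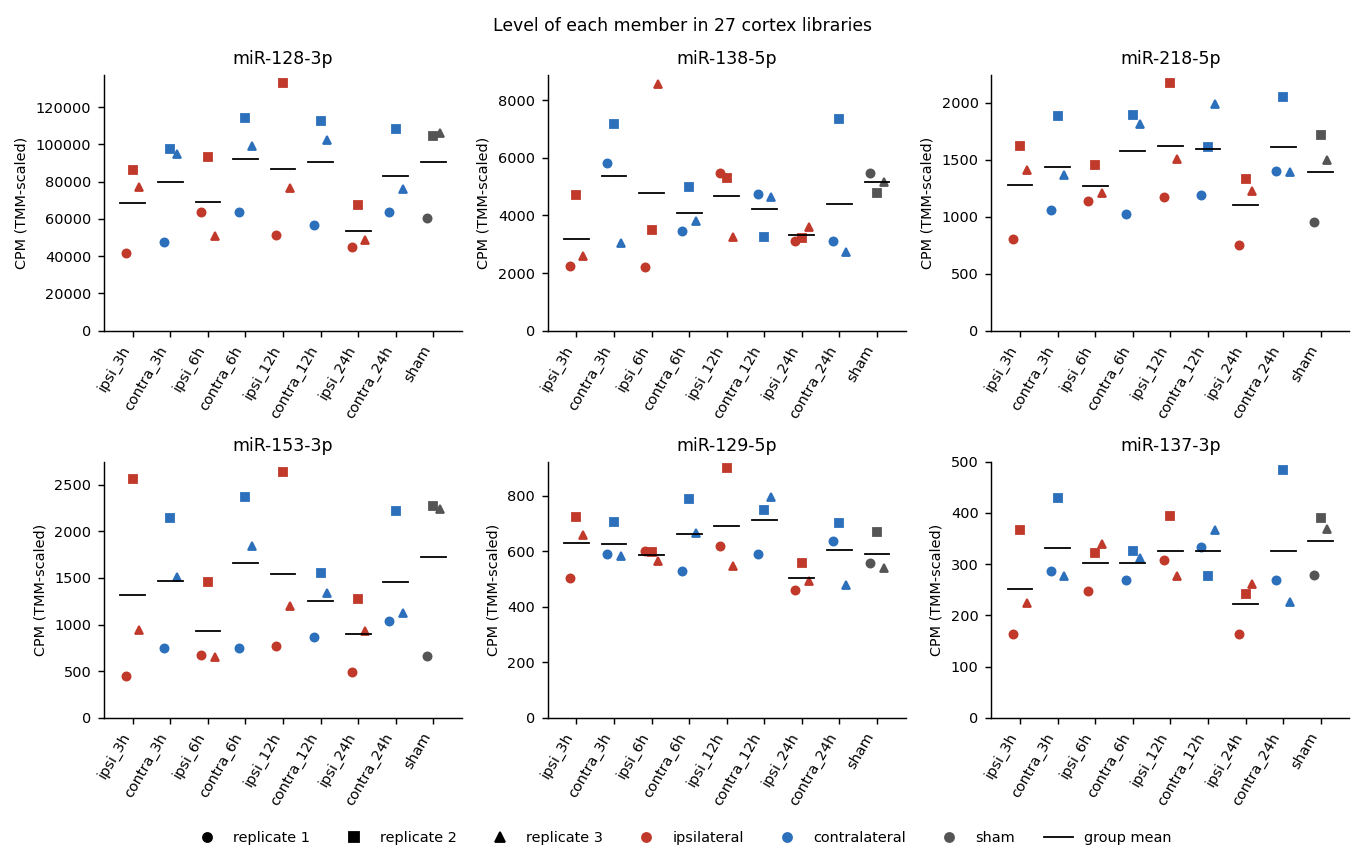
Level of each of the 6 miRNAs in CPM (TMM-scaled, linear axis from 0) in the 27 libraries by group, with 1 point per library, its shape giving the replicate number, and a line at the group mean. Replicate 2 (squares) lies above replicate 1 (circles) in all 9 groups for miR-128-3p, miR-153-3p and miR-218-5p, while the groups overlap at most times.

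Whether the neuronal miRNAs differ in the occluded cortex was asked first at each time against the opposite side. At 3, 6 and 12 h, none of the 6 passed the test between the hemispheres, and at 24 h all 6 were lower in ipsilateral cortex on the TMM scale without passing it. edgeR's quasi-likelihood test with Benjamini-Hochberg adjustment over the 1470 entries called 0 of 6 at each time, and 0 of 6 reached an unadjusted p under 0.05. Over all entries the test called 0% at 3 h, 0% at 6 h, 4.35% at 12 h and 13.3% at 24 h (1.43% lower in ipsilateral cortex). Entries lower in ipsilateral cortex at an unadjusted p under 0.05 were 0.544%, 0.544%, 1.56% and 6.6% of all at 3, 6, 12 and 24 h. DESeq2 also called 0 of 6 at each time, and 1.98%, 0.273%, 6.6% and 14.2% of the entries to which it gave an adjusted p. In bulk tissue fewer neurons and less of a miRNA per neuron cannot be told apart.

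miR-128-3p was at 41636, 86233 and 77226 CPM in ipsi_3h (replicates 1, 2 and 3) and at 47515, 97366 and 94934 in contra_3h. At 6 h it was at 63494, 93337 and 50720 CPM in ipsilateral and 63969, 113976 and 99341 CPM in contralateral cortex. At 12 h it was at 51485, 132965 and 76513 CPM in ipsilateral and 56869, 112376 and 102650 CPM in contralateral cortex. The hemispheres overlapped at all 3 times, yet within a replicate number the ipsilateral library was mostly the lower one on the TMM scale. At 24 h it was at 45154, 67235 and 48609 CPM in ipsilateral cortex, against 63720, 108443 and 76292 in contralateral cortex and 60639, 104720 and 105916 in sham. On this scale each ipsilateral library at 24 h lay below the contralateral library of its number, though ipsi_24h replicate 2 stood above contra_24h replicate 1. The log2 fold change of ipsilateral over contralateral cortex was -0.23 ± 0.37 (SE) at 3 h, -0.42 ± 0.37 at 6 h, -0.06 ± 0.37 at 12 h and -0.63 ± 0.37 at 24 h, with an edgeR adjusted p of 0.317 at 24 h. Over the 12 pairs of one number and time, the ipsilateral library was the lower in 11 with TMM factors and in 6 with library totals, at 24 h in 3 and 2 of 3.

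miR-218-5p was the only one of the 6 whose hemispheres did not overlap at 24 h on the TMM scale. It was at 754, 1331 and 1225 CPM in ipsi_24h and at 1399, 2050 and 1393 CPM in contra_24h, with 956, 1717 and 1495 CPM in sham. Ipsilateral levels thus lay below contralateral ones but inside the sham range except in replicate 1. Lower groups without overlap made up 12% of all entries in this comparison, so 1 of 6 is near the background. The log2 fold change was -0.55 ± 0.32 (edgeR adjusted p = 0.320), and it was between -0.31 and 0.02 at 3, 6 and 12 h.

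miR-153-3p varied widely among the libraries of most groups. At 24 h it was at 491, 1278 and 928 CPM in ipsilateral cortex, 1042, 2215 and 1126 in contralateral cortex and 663, 2276 and 2242 in sham. At 6 h it was at 670, 1453 and 655 CPM in ipsilateral and at 749, 2371 and 1846 CPM in contralateral cortex. With TMM factors the ipsilateral library was the lower in all 3 pairs at both times and in 10 of 12 pairs over all times (8 of 12 with library totals), while the groups overlapped. Its log2 fold changes were -0.84 ± 0.59 at 6 h and -0.70 ± 0.59 at 24 h, with edgeR adjusted p of 0.987 and 0.498.

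miR-137-3p, the least abundant of the 6, was at 163, 242 and 262 CPM in ipsi_24h, against 269, 484 and 227 CPM in contra_24h and 278, 391 and 368 CPM in sham. Its 24 h levels lay below all 3 sham libraries, as did those of 11.6% of all entries. They overlapped the contralateral ones (log2 fold change against contralateral cortex -0.55 ± 0.31, edgeR adjusted p = 0.294). miR-129-5p differed least, with 462, 558 and 495 CPM in ipsi_24h, 637, 701 and 480 in contra_24h and 558, 669 and 541 in sham. Its log2 fold change against contralateral cortex was -0.26 ± 0.23 (edgeR adjusted p = 0.525), and the ipsilateral library was the lower in 6 of 12 pairs (4 of 12 with library totals).

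miR-138-5p had its lowest ratio of ipsilateral to contralateral cortex at 3 h. There it was at 2232, 4706 and 2584 CPM in ipsilateral cortex, against 5820, 7187 and 3051 in contralateral cortex and 5472, 4791 and 5167 in sham. It was lower in ipsilateral cortex in all 3 pairs, and its ipsilateral libraries lay below all 3 sham libraries, as did those of 2.72% of all entries at that time (against contralateral cortex log2 -0.75 ± 0.41, unadjusted p = 0.0784, edgeR adjusted p = 0.999). At 6 h its libraries were at 2224, 3490 and 8572 CPM in ipsilateral and 3468, 4975 and 3814 CPM in contralateral cortex. The 8572 CPM of replicate 3, its highest level anywhere, is in the library with 20875 CPM of miR-182-5p; the part of that library in the result was not tested. The log2 fold change at 6 h was 0.22 ± 0.41 with that library and -0.52 ± 0.40 without it. At 24 h it was at 3110, 3217 and 3600 CPM in ipsilateral and at 3105, 7331 and 2722 CPM in contralateral cortex, where replicate 2 alone stood above the ipsilateral libraries. The log2 fold change was -0.41 ± 0.41 at 24 h (edgeR adjusted p = 0.587) and 0.18 ± 0.42 without contra_24h replicate 2.

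**Figure D2:**
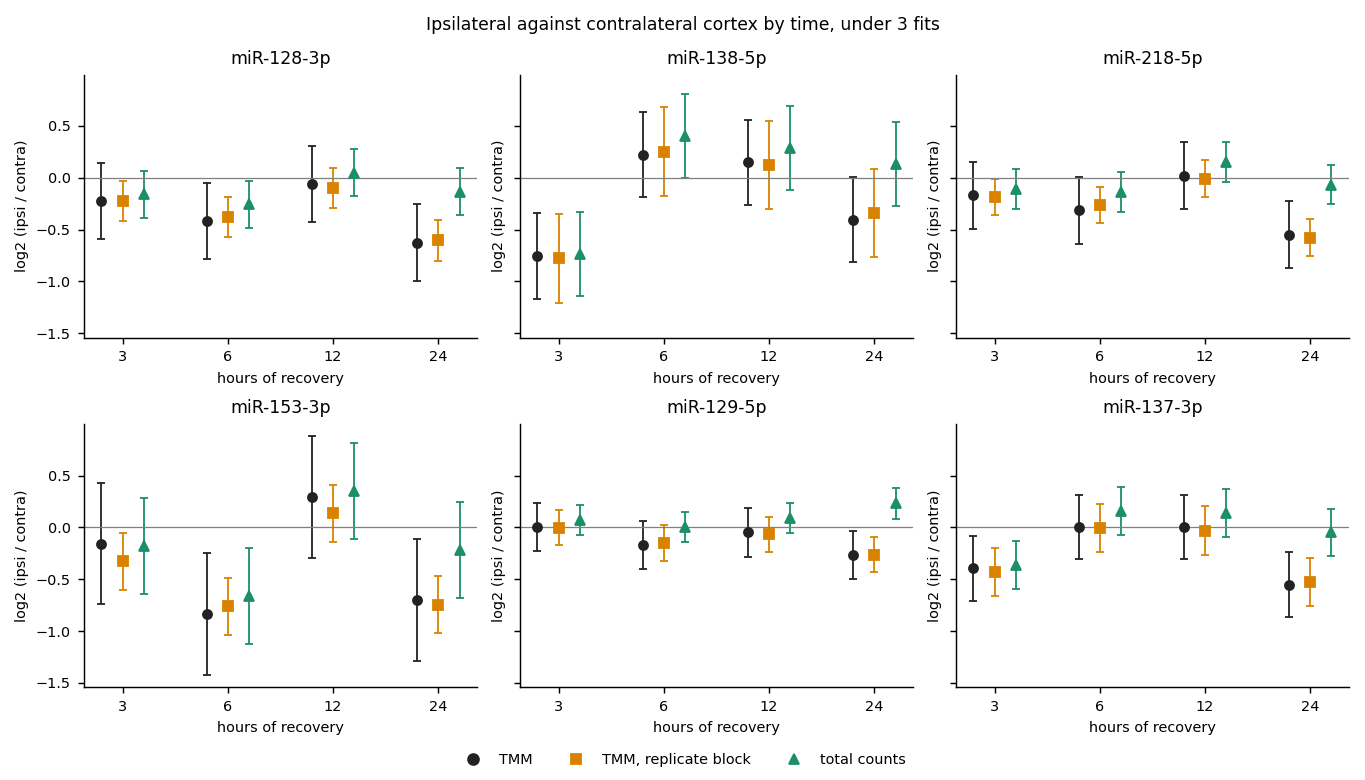
Log2 ratio of ipsilateral to contralateral cortex at 3, 6, 12 and 24 h for each miRNA, as estimate and SE from 3 edgeR fits: TMM factors, TMM factors with the replicate number as a block, and library totals. At 24 h all 6 estimates lie below 0 with TMM factors and between -0.22 and 0.23 with library totals.

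The size of the 24 h difference depended on the scaling. With TMM factors the median log2 fold change of the 6 was -0.55, against 0.08 over the 1470 entries and -0.46 over the 286 entries of at least 100 CPM. The TMM factors were 1.18 to 1.43 in ipsi_24h and 0.83 to 0.99 in contra_24h. With library totals alone the median of the 6 was -0.06, against 0.57 over all entries and 0.03 over the abundant ones, and 4 of 6 were below 0. On both scales the median of the 6 was close to that of the abundant entries. With library totals edgeR called 15.4% of all entries and again 0 of 6. As a share of all counts they made up 7.58% ± 0.98 in ipsi_24h, 8.22% ± 1.77 in contra_24h and 9.72% ± 2.24 in sham (SD, n = 3 each), which overlap.

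With the replicate number as a block in the fit some differences passed. At 24 h edgeR with the block called 2 of 6 lower in ipsilateral cortex, miR-128-3p (log2 fold change -0.60 ± 0.19, adjusted p = 0.0272) and miR-218-5p (-0.58 ± 0.18, adjusted p = 0.0203). Of all entries 6.53% were called lower in this fit, and 30.4% of the 286 abundant ones. With the block and library totals 0 of 6 were called, and miR-128-3p was at -0.11 ± 0.15 and miR-218-5p at -0.08 ± 0.13. The blocked call of miR-128-3p was lost without contra_24h replicate 1 or 2 or without ipsi_24h replicate 2 or 3 (edgeR adjusted p over the 6 cases 0.0315 to 0.139). That of miR-218-5p was lost without replicate 1 or 2 of either group (0.0106 to 0.160).

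Averaged over the 4 times, all 6 miRNAs were lower in ipsilateral cortex with TMM factors, with log2 differences of -0.12 to -0.35 and a median of -0.24 (all entries 0.01, abundant entries -0.20). edgeR called 0 of 6, with 0 of 6 at an unadjusted p under 0.05, and 11.6% of all entries. DESeq2 called 0 of 6 and 12% of its entries. With the block edgeR called 3 of 6 lower: miR-128-3p (-0.33 ± 0.10, adjusted p = 0.0210), miR-153-3p (-0.42 ± 0.14, adjusted p = 0.0345) and miR-218-5p (-0.26 ± 0.09, adjusted p = 0.0408), where 4.97% of all entries were called lower. The 6 are all abundant entries, of which the blocked 24 h fit called more lower than of all entries (30.4% against 6.53%). The share of abundant entries called lower over the 4 times is not given here. The 3 of 6 can therefore not be read as an excess. Without single libraries the blocked call was lost in 1 of 24 cases for miR-128-3p (adjusted p = 0.0501 without contra_3h replicate 3), in 13 of 24 for miR-153-3p and in 15 of 24 for miR-218-5p. With library totals the median of the 6 was -0.04 and 4 of 6 were below 0. With the block and library totals 0 of 6 were called. There miR-128-3p was at -0.11 ± 0.07 (edgeR adjusted p = 0.320), miR-153-3p at -0.21 ± 0.12 (0.229) and miR-218-5p at -0.04 ± 0.07 (0.726). The joint tests of a difference at any time (8.98% of all entries called) and of its change over time (0.612% called) called 0 of 6, with the smallest edgeR adjusted p at 0.778 and 0.958 and 0 of 6 at an unadjusted p under 0.05. With the block 3 of 6 had an unadjusted p under 0.05 for a difference at any time, and the smallest edgeR adjusted p was 0.0758. In DESeq2's joint tests 0 of 6 were called, and 10.6% and 4.55% of its entries.

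Against sham none of the 6 miRNAs was called at any time without the block. In ipsilateral cortex all 6 lay below sham at 24 h, with log2 fold changes from -0.22 to -0.94 and a median of -0.64 (abundant entries -0.38). edgeR called 0 of 6 at 3, 6, 12 and 24 h, where it called 0%, 0%, 5.44% and 12.7% of all entries (1.36% lower at 24 h), and DESeq2 called 0 of 6 and 2.94%, 0.273%, 6.82% and 13.1% of its entries. None of the 6 had an unadjusted p under 0.05 in edgeR, where 1.43%, 1.22%, 5.1% and 6.8% of all entries were lower at that level. Leaving out any single library, sham replicate 2 included, left the count at 0. The ipsi_24h and sham libraries did not overlap for miR-137-3p and for miR-138-5p, which was at 3110, 3217 and 3600 CPM in ipsi_24h and at 5472, 4791 and 5167 in sham, while such lower groups made up 11.6% of all entries. With the replicate block 2 of 6 were called lower at 24 h (4.69% of all entries, a share not limited to the abundant ones to which the 6 belong), miR-128-3p at -0.73 ± 0.19 (edgeR adjusted p = 0.00967) and miR-153-3p at -0.90 ± 0.28 (adjusted p = 0.0241). With the block and library totals neither was called, at -0.35 ± 0.15 (edgeR adjusted p = 0.105) and -0.54 ± 0.24 (adjusted p = 0.126). With library totals the median at 24 h was -0.27, against 0.36 over all entries and 0.00 over the abundant ones. The ipsilateral comparisons at the 4 times share the same 3 sham libraries. In contralateral cortex the median of the 6 against sham was 0.00 at 3 h, -0.01 at 6 h, -0.04 at 12 h and -0.10 at 24 h, and edgeR and DESeq2 called 0 of 6 and 0% of entries at each time. None of the 6 had an unadjusted p under 0.05, where 0.748%, 1.84%, 3.67% and 1.63% of all entries were lower in contralateral cortex. miR-138-5p at 4757, 3254 and 4654 CPM in contra_12h lay below the 3 sham libraries, as did 7.76% of all entries.

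The replicate number, which stands for the day of surgery, set the libraries apart for most of the 6. In a test added after the data were seen, edgeR compared the 3 replicate numbers within the 9 groups and called 5 of the 6 miRNAs, with 25% of all entries called (13.8% of all with number 2 above number 1) and 53.8% of the 286 abundant ones. miR-153-3p averaged 2054 ± 499 CPM in the 9 libraries of number 2 and 715 ± 181 in those of number 1 (SD), with 1311 ± 494 for number 3. Fitted within groups, it was 2.85-fold higher for number 2 than for number 1 (edgeR adjusted p = 5.78e-07). miR-128-3p was 1.84-fold higher (101850 ± 18749 CPM against 54942 ± 8716, adjusted p = 7.65e-06) and miR-218-5p 1.66-fold higher (1748 ± 276 against 1057 ± 200 CPM, adjusted p = 1.97e-05). For these 3 all 9 groups had the number 2 library above the group mean and the number 1 library below it. miR-137-3p (1.42-fold, adjusted p = 0.0200) and miR-129-5p (1.25-fold, adjusted p = 0.0326) followed with smaller folds. miR-138-5p did not pass (1.27-fold, edgeR adjusted p = 0.505), and its number 2 library was above the group mean in 5 of 9 groups.

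**Figure D3:**
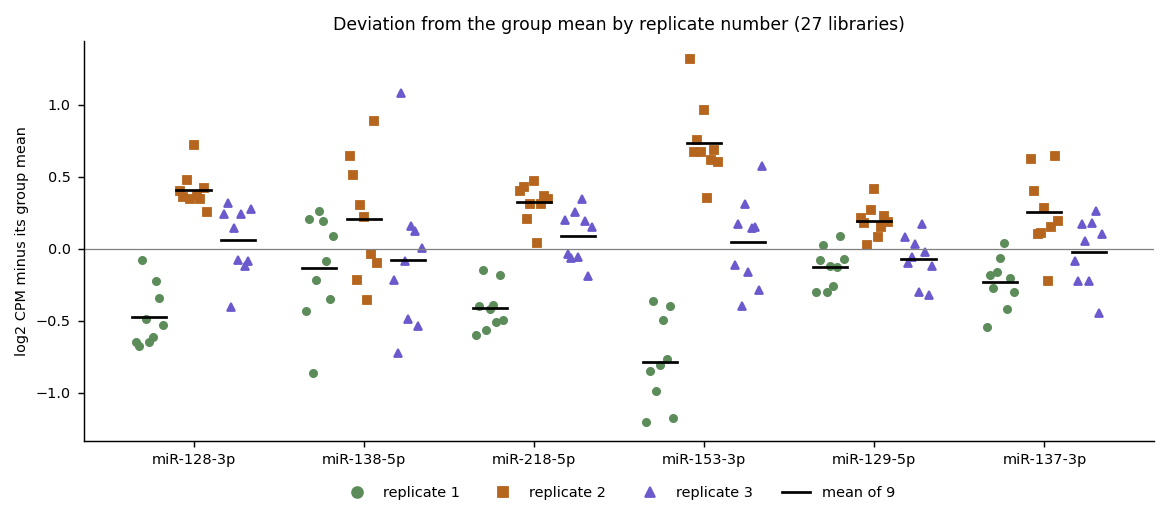
Deviation of each library's log2 CPM from its group mean, by miRNA and replicate number, with 9 points per number and a line at their mean. miR-153-3p separates the numbers most, at -0.78 for number 1 and 0.74 for number 2, and the numbers overlap for miR-138-5p.

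The replicate number held 69.0% of the variance of log2 CPM of miR-153-3p, 62.5% for miR-218-5p and 58.9% for miR-128-3p, against 16.8%, 22.8% and 25.1% for the 9 groups. For miR-138-5p it held 8.57%, and 69.0% belonged to neither. The TMM factors ran from 0.93 to 1.51 for number 1 and from 0.68 to 1.18 for number 2. With library totals 3 of 6 were called, where 51% of all entries were, namely miR-153-3p (adjusted p = 1.25e-05), miR-128-3p (0.000814) and miR-218-5p (0.00315), while miR-129-5p (0.182) and miR-137-3p (0.872) were not. Without single libraries those 3 kept their call in all 27 cases, whereas miR-129-5p lost it in 11 and miR-137-3p in 4. Without the 3 sham libraries 4 of 6 were called, and 22.3% of the entries tested there. With TMM factors 14 of 20 other neuronal miRNAs were called, and all 14 were higher for number 2 than number 1, by 1.30-fold to 2.51-fold. Among them were miR-124-3p (1.97-fold, edgeR adjusted p = 3.77e-07), the miRNA most specific to neurons, and miR-9-3p (2.42-fold, adjusted p = 2.22e-07). Values with library totals are not given for these 20. Animals, dissection and library making were not separated by the labels, so what differed between the surgery days cannot be told apart.

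Most of the 6 miRNAs varied together over the 27 libraries. Within a library all entries share its scaling, surgery day and depth, so the values are descriptive. miR-128-3p, miR-153-3p and miR-218-5p had Spearman correlations of 0.89 to 0.91 with each other. With these 3, miR-129-5p correlated at 0.66 to 0.76 and miR-137-3p at 0.59 to 0.66. miR-137-3p and miR-138-5p correlated at 0.81, while miR-138-5p correlated with the rest at 0.20 to 0.33. Among 277 other entries of at least 100 CPM, the most alike to miR-128-3p were miR-186-5p (0.94), miR-673-5p (0.94) and miR-212-3p (0.93). The most alike to miR-153-3p were miR-872-5p (0.95), miR-29a-3p (0.95) and miR-338-3p (0.94), and to miR-218-5p miR-9-3p (0.94), miR-335-5p (0.94) and miR-29a-3p (0.94). For miR-137-3p they were miR-666-3p (0.92), miR-136-5p (0.89) and miR-487b-3p (0.87). For miR-138-5p they were miR-149-5p (0.91), miR-872-3p (0.84) and miR-30b-5p (0.80), and for miR-129-5p miR-6946-3p (0.83), miR-1843a-5p (0.81) and miR-300-3p (0.81).

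Other strands of these hairpins gave a further readout, except for Mir153, whose miR-153-5p did not pass the filter. Tested with them was miR-129b-5p, which comes from another hairpin, Mir129b, on the opposite DNA strand over Mir129-2. Of these 10 strands edgeR without the block called 1 between the hemispheres, miR-129-2-3p over the mean of the 4 times. The hairpin Mir129-2 is shown because it yields both that strand and miR-129-5p, with both mature strands in capitals (5′ to 3′, minus strand of chr2:94241364-94241453, GRCm38.p6).
Mir129-2: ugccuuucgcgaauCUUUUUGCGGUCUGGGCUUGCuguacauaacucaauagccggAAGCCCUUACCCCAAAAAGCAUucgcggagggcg
The strand from the 3′ side, miR-129-2-3p, resembles the matching stretch of the Mir129-1 hairpin closely. Seeds are again in capitals, and the stretch covers chr6:29022667-29022688, plus strand.
miR-129-2-3p: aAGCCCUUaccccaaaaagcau
Mir129-1 stretch: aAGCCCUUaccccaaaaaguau
They differ by a single substitution, C20U, counted from the 5′ end of miR-129-2-3p, so reads of miR-129-1-3p and miR-129-2-3p may have been split imperfectly and their single values are uncertain to that extent.

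miR-129-2-3p was at 1603, 1001 and 538 CPM in ipsi_24h, against 253, 598 and 345 CPM in contra_24h and 381, 398 and 393 CPM in sham. At 12 h it was at 408, 545 and 1805 CPM in ipsilateral cortex and 250.5, 556 and 641 CPM in contralateral cortex. Ipsilateral libraries reached the highest levels at both times, from replicate 1 at 24 h and replicate 3 at 12 h, and the hemispheres overlapped. At 3 h it was at 405, 574 and 579 CPM in ipsilateral and at 344, 555 and 348 CPM in contralateral cortex. Averaged over the 4 times it rose in ipsilateral cortex by a log2 difference of 0.73 ± 0.24 (edgeR adjusted p = 0.0479, higher in 10 of 12 pairs of one number), the only one of 10 tested strands to pass, where 11.6% of all entries passed. The call held with library totals (1.01 ± 0.25, adjusted p = 0.00680), with DESeq2 (adjusted p = 0.0460) and with the replicate block (adjusted p = 0.0381). It was lost in 17 of 24 cases when a single library was left out (it held without replicate 2 of contra_3h, contra_24h or ipsi_12h, replicate 3 of contra_12h or ipsi_24h, or replicate 1 of ipsi_6h or ipsi_12h), with adjusted p from 0.0200 to 0.207. At 24 h alone the log2 fold change was 1.39 ± 0.49 (edgeR adjusted p = 0.0580), and 1.95 ± 0.51 with library totals (adjusted p = 0.00996) and 1.55 ± 0.49 with the block (adjusted p = 0.0279). Leaving out single libraries moved the blocked 24 h value between 0.76 and 1.98 and ended its call in 3 of 6 cases, without contra_24h replicate 1 or 3 or ipsi_24h replicate 1 (edgeR adjusted p up to 0.333). The blocked call over the 4 times was lost in 16 of 24 cases.

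The ratio of the strands within a library needs no scaling between libraries. miR-129-2-3p had 3.47, 1.79 and 1.09 counts per count of miR-129-5p in ipsi_24h, against 0.397, 0.852 and 0.718 in contra_24h and 0.683, 0.596 and 0.726 in sham. All 3 ipsilateral ratios at 24 h were above every contralateral and sham ratio. At 3 h the ratios of the hemispheres did not overlap either, at 0.795 to 0.879 in ipsilateral and 0.582 to 0.786 in contralateral cortex. At 12 h they were 0.659, 0.605 and 3.29 in ipsilateral and 0.424, 0.743 and 0.805 in contralateral cortex, so 1 library carried the difference there. Over the 4 times the log2 ratio was higher in ipsilateral cortex by 0.76 on average (1.69-fold), with differences of 0.35, 0.29, 0.79 and 1.60 at 3, 6, 12 and 24 h. An exact two-sided permutation of the hemispheres within each time gave p = 0.0126, and 0.113 after Benjamini-Hochberg adjustment over the 9 strand pairs compared, so it failed the correction. The pair was singled out after its values were seen. Without single libraries the difference was 0.56 to 0.87 (exact permutation p between 0.0008 and 0.0388). With reads of miR-129-1-3p added to those of miR-129-2-3p the difference was 0.67 (exact permutation p = 0.0214). For the other 8 pairs the mean difference lay between -0.19 and 0.21. Among them the hemispheres did not overlap for miR-137-5p at 12 h and for miR-218-2-3p at 3 h, both with lower ratios in ipsilateral cortex. At a single time, with 3 libraries against 3, the smallest possible exact permutation p is 0.1.

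**Figure D4:**
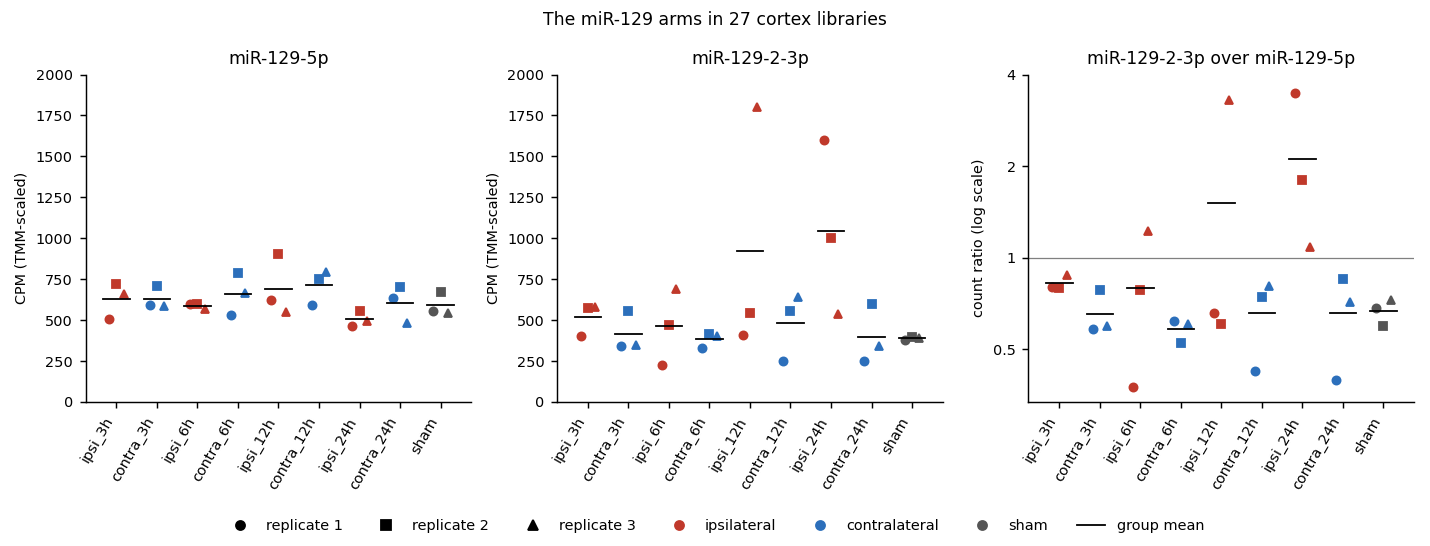
Level of miR-129-5p and of miR-129-2-3p in CPM (linear axes from 0) and the ratio of their counts (log axis) in the 27 libraries by group, with 1 point per library and a line at the group mean. The miR-129-5p levels stay between 462 and 901 CPM, while miR-129-2-3p reaches 1603 CPM in ipsi_24h and 1805 in ipsi_12h, and the ratio is above 1 in all 3 ipsi_24h libraries.

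Of the other strands with at least 100 CPM, miR-128-1-5p was at 295, 377 and 399 CPM in ipsi_24h, against 623, 572 and 558 CPM in contra_24h and 543, 438 and 326 in sham. Its 24 h hemispheres did not overlap, but the sham libraries bridged them. Lower groups without overlap made up 12% of all entries in this comparison. The log2 fold change was -0.71 ± 0.24 (edgeR adjusted p = 0.0545), -0.71 ± 0.21 with the block (adjusted p = 0.0188) and -0.23 ± 0.22 with library totals (adjusted p = 0.537), and DESeq2 called it (adjusted p = 0.0185). The blocked call was lost in 3 of 6 cases, without contra_24h replicate 1 or ipsi_24h replicate 1 or 2 (edgeR adjusted p up to 0.135). Its ratio to miR-128-3p differed between the hemispheres by a mean log2 of 0.07 (exact permutation p = 0.704). miR-129-1-3p averaged 100.1 CPM over the 27 libraries and had a log2 fold change of 0.18 ± 0.49 at 24 h (edgeR adjusted p = 0.874). miR-138-1-3p averaged 169 CPM and had -0.24 ± 0.43 (edgeR adjusted p = 0.795), which was 0.30 with library totals. By replicate number miR-138-1-3p went the other way, at 0.518-fold in number 2 relative to number 1 (126 ± 26.1 against 241 ± 14.9 CPM, edgeR adjusted p = 1.61e-06), while miR-138-2-3p, from the other miR-138 hairpin, was 1.59-fold higher (adjusted p = 0.00554). The remaining 6 tested strands averaged between 6.54 and 38.4 CPM. Of all 10 tested strands edgeR called 0 between the hemispheres at each single time. At an unadjusted p under 0.05 there were 1 at 3 h, 0 at 6 and 12 h and 2 at 24 h. Entries lower in ipsilateral cortex at that level were 0.544% of all at 3 h and 6.6% at 24 h. DESeq2 called 1 strand, at 24 h, where it called 14.2% of its entries.

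The 20 other neuronal miRNAs give the setting for the 6. At 24 h all 20 had a log2 fold change below 0 with TMM factors, with a median of -0.57. The median of the abundant entries, given above, was also below 0 on this scale. edgeR called 0 of 20, with 6 at an unadjusted p under 0.05. Of all entries, abundant or not, 6.6% were lower at that level. DESeq2 called miR-132-5p and miR-485-5p lower, where it called 14.2% of its entries in either direction. With the replicate block 7 of 20 were called lower, beside 6.53% of all and 30.4% of the abundant entries: miR-9-5p, miR-9-3p, miR-132-5p, miR-136-5p, miR-212-3p, miR-212-5p and miR-485-5p, with log2 fold changes between -0.59 and -0.90. With library totals 0 of 20 were called, with a median of -0.08 and 12 of 20 below 0. miR-9-5p, the most abundant of them, had -0.70 ± 0.26 (edgeR adjusted p = 0.0844). Their summed level on the TMM scale was 27579 to 39791 CPM in ipsi_24h, 47250 to 59628 in contra_24h and 41445 to 60997 in sham. On that scale summed levels of other cell types were mostly lower in ipsi_24h too. Division by TMM factors of 1.18 to 1.43 in ipsi_24h and 0.83 to 0.99 in contra_24h by itself lowers the ipsilateral sums relative to the contralateral ones. No sums were taken with library totals. The 3 vascular miRNAs summed to 9448 to 16801 CPM in ipsi_24h and 15353 to 39521 CPM in contra_24h. The 6 leukocyte and microglial ones summed to 1033 to 1577 and 1444 to 2077 CPM. The 5 oligodendrocyte entries summed to 1036 to 1887 CPM in ipsi_24h and 1878 to 2640 CPM in contra_24h, while the 8 epithelial entries summed to 569 to 961 CPM in ipsi_24h and 443 to 498 CPM in contra_24h. None of the entries of these 4 lists was at 0 in ipsi_24h or contra_24h as a group. The part of cell composition in the 24 h differences was not tested.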

How the data were processed

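The input was the authors' deposited table of raw read counts per mature miRNA, one column for each of the 27 libraries. Per the labels' protocols, Trizol RNA went into TruSeq small RNA libraries with inserts of 15 to 35 bp, read as 69 bp single ends on a MiSeq. The submitters' processing notes list Novoalign and edgeR. Sources used here give neither their roles and versions, nor the build, nor how reads matching more than 1 entry were counted. edgeR 4.0.16 in R 4.3.3 fitted 9 group means with TMM factors and robust dispersions (18 residual degrees of freedom) to the 1470 entries kept by filterByExpr. P-values of the quasi-likelihood F tests received Benjamini-Hochberg adjustment over all of these, with a threshold of 0.05. Refits used DESeq2 1.42.0, library totals, TMM factors from abundant entries, no filter, only the groups compared, a replicate block, and each library left out. Library totals with the block, and the test of replicate number, were added after the data were seen. When checked on simulated counts, the 24 h comparison of the hemispheres missed most 2-fold changes, so a miRNA it did not call may still differ.

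The design text ties each replicate number to a day of surgery, so numbers pair libraries by day. Deviations from group means had an average correlation of 0.40 over 108 pairs of libraries with the same number in different groups, and of -0.20 over 216 pairs with different numbers. Deviations sum to 0 within a group, so the negative value follows largely from the positive one and is no separate observation. No replicates agreed within sampling noise (chi-square per degree of freedom of at least 11.2). Nothing says that a library is 1 animal, so p-values measure the spread between these libraries, which may be partly technical.

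Values are given for all 6 members, for their other strands of at least 100 CPM, for the 3 most similar entries by Spearman's rho, and for other neuronal miRNAs that averaged at least 10000 CPM or were called between the hemispheres. Other names were chosen after their values were seen. The members and lists were chosen with earlier results of these data known. Strand ratios are log2 of (count + 0.5) over (count + 0.5), with exact permutations over all 160000 exchanges within times. Sequences and hairpins come from RefSeq (GRCm38.p6), overlapping genes from GENCODE M21.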

Additional observations from a re-analysis of the deposited data

How the results depend on the processing

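Comparisons between groups called 0 of the 6 under DESeq2, library totals, TMM factors from abundant entries, no filter, only the groups compared and without any single library. With the replicate block the calls were 2 at 24 h against contralateral cortex, 2 at 24 h against sham and 3 for the mean over the 4 times, and 0 in each of these with the block and library totals together. The test of replicate number called 3 in place of 5 with library totals, with abundant factors and with no filter, and 3 to 5 without single libraries, the 3 arising without contra_3h replicate 2, contra_24h replicate 2, ipsi_3h replicate 1 or ipsi_3h replicate 2. With at least 194 counts of each of the 6 in every library, the spread between libraries rather than counting error limited the precision. The cause of the changes of sign was not tested.

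Of 30 log2 fold changes between the hemispheres, 19 kept their sign in the alternatives that keep every library. Library totals turned miR-129-5p to 0.0037 at 6 h, 0.089 at 12 h, 0.23 at 24 h and 0.10 over the 4 times, miR-128-3p to 0.049 at 12 h, miR-138-5p to 0.13 at 24 h and 0.020 over the 4 times, and miR-138-1-3p to 0.30 and 0.21. Abundant factors gave 0.11 and 0.0026 for miR-129-5p at 24 h and over the 4 times, 0.0020 for miR-138-5p at 24 h, and 0.19 and 0.13 for miR-138-1-3p. No filter gave 0.064 for miR-128-3p and 0.071 for miR-129-5p at 12 h, and -0.00048 for miR-129-5p at 3 h. DESeq2 gave -0.015 for miR-129-5p at 3 h and -0.043 for miR-137-3p at 6 h. The replicate block gave -0.0021 for miR-129-5p at 3 h, -0.0015 and -0.030 for miR-137-3p at 6 and 12 h, and -0.0081 for miR-218-5p at 12 h.

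Leaving out single libraries changed signs mainly at 3 and 12 h. The log2 fold changes then ran from -0.49 to 0.037 at 3 h and -0.50 to 0.20 at 12 h for miR-128-3p. They ran from -0.11 to 0.14 and -0.29 to 0.086 at these times for miR-129-5p, from -1.08 to 0.26 and -0.35 to 0.61 for miR-153-3p, and from -0.38 to 0.078 and -0.26 to 0.21 for miR-218-5p. For miR-137-3p they ran from -0.085 to 0.13 at 6 h and -0.15 to 0.10 at 12 h. For miR-138-5p they ran from -0.52 to 0.56 at 6 h, -0.0070 to 0.35 at 12 h and -0.66 to 0.18 at 24 h. For miR-138-1-3p they ran from -0.68 to 0.12 at 24 h and -0.17 to 0.058 over the 4 times.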
